A study of Mus musculus with 4 samples.

Results

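All cells of the aged culture on soft substrate were compared with all cells of the young culture on the same substrate. The comparison took in 1333 aged and 1360 young cells, together 2693 of the 5913 cells in the 4 libraries of the series. Both groups were muscle stem cells from skeletal muscle of wild-type C57BL/6 mice, held for 7 days on polydimethylsiloxane (PDMS, an elastic silicone) of 12 kPa in DMEM with 10% fetal bovine serum. By their labels they differed only in age, young against aged, and no age in months, sex or number of animals is given in the sources used here. The other pair of libraries, young and aged cells on PDMS of 29 kPa (3220 cells), shares no library with the soft pair and is set beside it where a second reading helps. Each group was 1 library, so every difference below is one between 2 libraries, has no replicate check and carries no test. The age of the cells cannot be told apart from any other way in which the libraries differed.

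Muscle stem cells, or satellite cells, rest beside the muscle fibre and are marked by the transcription factor Pax7. When they are activated they divide as myoblasts, with Myod1 and Myf5 switched on. The transcription factor Myog then marks commitment: the cell leaves the cell cycle, switches on the contractile apparatus (the sarcomere) and fuses into a myotube. A culture therefore holds cells at several stages, and its average changes when the mix of stages changes as well as when cells of a given stage change. To tell these apart, cells were also compared within 3 bins of Myog: under 7, from 7 to under 11, and 11 or more, on the log2(CPM + 1) scale. CPM is a gene's molecules (UMIs, unique molecular identifiers) scaled to the same total in each cell. Levels below are means of CPM over cells, and differences are log2 ratios of aged over young, each level with 5 CPM added, which understates the difference of low genes.

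Median depth was 35606.5 UMIs per young and 33315 per aged cell, and the median mitochondrial share was 5.26% and 5.63%. Cells with under 1% mitochondrial counts numbered 21 in the young and 83 in the aged library, 71 of the latter in the middle Myog bin. In the bin with Myog under 7 the median depth was 30910 UMIs in young and 23301 in aged cells. The young and aged soft libraries shared no cell barcode. The labelled cell type was met: Pax7, Myf5, Myod1, Myog and the muscle filament gene Des were all measured in both libraries, and Des averaged 3107 CPM in young and 4487 CPM in aged cells. Endothelial, myeloid, lymphoid, glial and adipocyte marker lists summed to between 0.14 and 11.8 CPM in either soft library, with 0 of their members at 20 CPM. In young and aged cells the myeloid list summed to 2.36 and 11.8 CPM and the lymphoid list to 3.49 and 7.42 CPM. The glial list had 1.52 and 2.72 CPM, the adipocyte list 0.135 and 0.453 CPM and the endothelial list 1.95 and 1.37 CPM. The part of such cells in the results was not tested. Among markers of other types, Scx (tendon, 139 and 292 CPM), Gsn (122 and 146), Pdgfrb (26.9 and 16.2) and Abcc9 (17.7 and 36.1) passed 20 CPM. The tendon list summed to 264 and 447 CPM in the middle Myog bin, and to 1.74 and 2.17 CPM there without Scx. Abcc9 was 29.8 and 50.8 CPM in that bin and 1.43 and 1.57 CPM with Myog under 7. Pdgfrb and Gsn were instead the top members of their lists with Myog under 7. The part of these 4 genes' cell types in the results was not tested. The Y-linked gene Ddx3y stood at 73.1 and 73.3 CPM, and Eif2s3y, also Y-linked, at 48.4 and 76.1 CPM.

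Fewer aged than young cells were in the bin of lowest Myog, and more were in the middle bin. Myog was under 7 in 38.7% of young cells (526 of 1360, 95% exact binomial interval 36.1 to 41.3%) and in 20.3% of aged cells (271 of 1333, 18.2 to 22.6%). The bin from 7 to 11 held 31.2% of young (28.7 to 33.7%) and 47.2% of aged cells (44.5 to 49.9%). The highest bin held 30.1% of young (27.7 to 32.7%) and 32.5% of aged cells (30.0 to 35.1%), intervals that overlap. The shift was thus from the lowest to the middle bin. No Myog molecule was counted in 23.3% of young and 13.4% of aged cells. Intervals cover counting error only. On stiff substrate the 3 shares were 37.7%, 32.7% and 29.6% in young and 15.2%, 56.1% and 28.8% in aged cells.

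**Figure D1:**
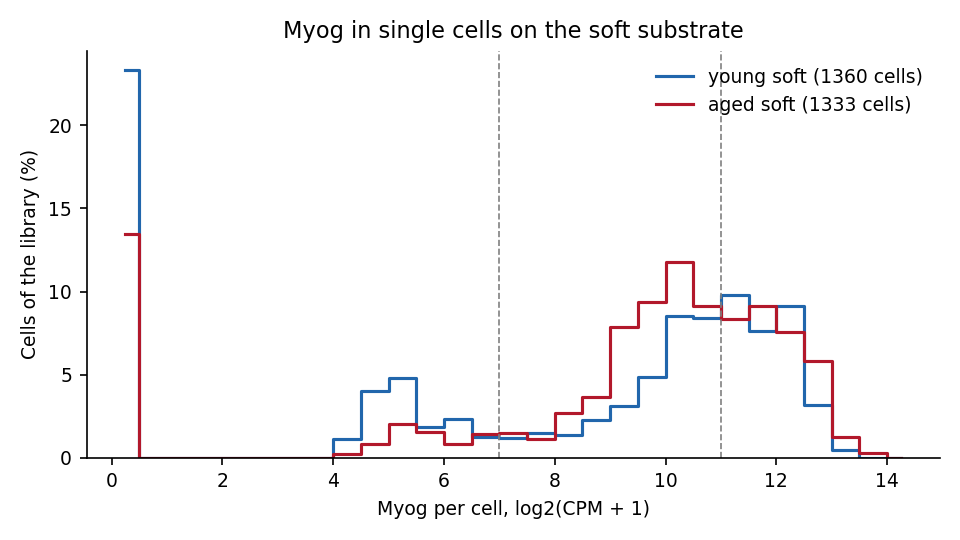
Share of each soft library's cells (vertical axis, percent) by Myog level (horizontal axis, log2(CPM + 1), steps of equal width), for young (blue) and aged cells (red), with dashed lines at the bin edges 7 and 11. Aged cells are fewer at 0 (13.4% against 23.3%) and more numerous between the dashed lines (47.2% against 31.2%).

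The bins did not hold the same cells in the 2 libraries. When cells of all libraries were ranked by the summed CPM of contractile genes and cut into tertiles, the highest tertile took 49.1% of the young (44.2 to 53.9%) and 66.9% of the aged cells (63.1 to 70.6%) of the middle Myog bin. The lowest tertile took 18.9% of the young (15.3 to 22.9%) and 6.36% of the aged cells (4.58 to 8.56%) of that bin. In the bin with Myog under 7, 17 of 526 young and 35 of 271 aged cells were in the middle or highest tertile. The median contractile sum in that bin was 3638 CPM in young and 4583 CPM in aged cells. The same median was 117977 and 135267 CPM in the middle bin and 89676 and 95769.8 CPM in the highest. Contractile RNA was thus highest in the middle bin of both libraries, and the Myog bins do not order cells by it. Within the low and middle Myog bins, aged cells therefore carried more contractile RNA. Myog itself was not equal within a bin, as 108 of 424 young and 230 of 629 aged cells of the middle bin lay from 9 to 10. A difference within a bin still mixes stage with level.

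Over all cells, 45 of 6147 genes measured (at least 20 CPM in either library) were at least 2 times higher in aged cells (0.732%) and 170 were at least 2 times lower (2.77%). With aged cells reweighted so that each Myog bin had its share in the young library, 32 of 6138 genes were at least 2 times higher (0.521%) and 49 lower (0.798%). Of the 45 and the 170 genes, 19 and 45 were also past 2-fold when weighted (42.2% and 26.5% of each list). The median ratio of the 45 genes was 1.23 over all cells and 0.92 weighted, and that of the 170 genes was -1.24 and -0.77. Weighting brought 40 of the 45 and 164 of the 170 nearer to 0. The lowest weighted ratio among the 45 was 0.54 (Ankrd23). With equal bin shares most of these genes thus had smaller ratios, though they had been picked by their all-cell ratio. Of the 32 and 49 genes past 2-fold when weighted, 59.4% and 91.8% were among the 45 and the 170. The median over all genes was -0.12, with 35.3% of genes higher and 64.7% lower. Scaling by the median of ratios would shift the all-cell ratios up by at most 0.15, and by less for genes near the 5 CPM added. That scaling gave 89 higher and 124 lower genes in place of 45 and 170. The median over all genes was -0.08 weighted and -0.05, -0.10 and -0.07 from the lowest to the highest bin.

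**Figure D2:**
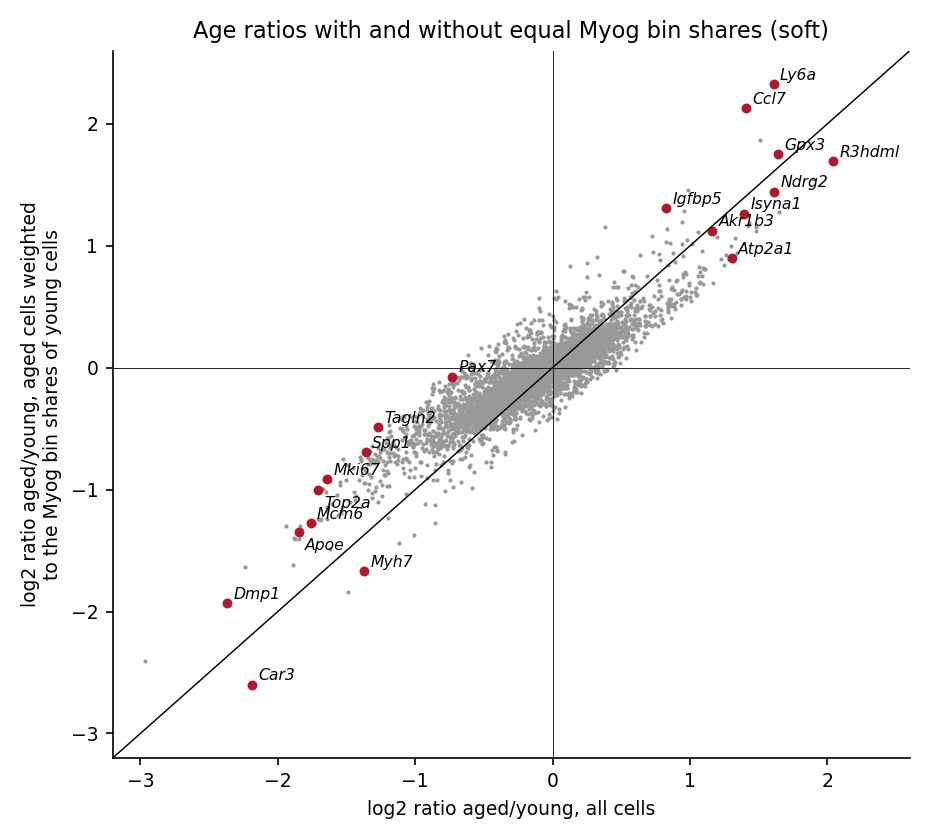
Each point is a gene: its log2 ratio of aged over young over all soft cells (horizontal axis) against the ratio after aged cells were weighted to the young Myog bin shares (vertical axis), with the line of equality. Pax7 (-0.73) moves to near 0 on the vertical axis, Mki67 and Top2a move part of the way, and Gpx3, Ly6a and Car3 do not move toward 0.

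Inside the bins, 77 of 6497 genes were at least 2 times higher (1.19%) and 80 lower (1.23%) with Myog under 7. In the middle bin the numbers were 29 (0.507%) and 160 (2.8%) of 5718, and in the highest bin 30 (0.537%) and 33 (0.591%) of 5585. Of 4859 genes measured in all 3 bins, 6 were at least 2 times higher in every one (0.123%) and 2 lower in every one (0.0412%). The 6 were Gpx3, Ndrg2, Akr1b3, Isyna1, Scd1 and Ifitm3. Of the 2 lower genes one was the histone gene Hist1h2ap and the other is not reported here.

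Gpx3, the secreted selenium-containing glutathione peroxidase, had nearly the same ratio in the 3 bins. It averaged 421 CPM in young and 1319.8 CPM in aged cells. By bin from low to high Myog, young cells had 588, 439 and 187 CPM and aged cells 1993, 1502 and 634 CPM. The level declined toward high Myog in both libraries while the log2 ratio was 1.75, 1.76 and 1.73. The median cell had 176 CPM in young and 789 CPM in aged, and the 90th percentile was 1155 and 3128 CPM. With 5000 UMIs drawn at random from every cell (0 cells were too shallow), a Gpx3 molecule was found in 55.8% of young and 78.8% of aged cells (81.9% and 93.7% before thinning). The ratio of summed UMIs, relative to all UMIs, was 3.35 (95% exact interval 3.30 to 3.41, counting error only). Over cell tertiles of the contractile sum the log2 ratio was 1.73, 1.95 and 1.77, so the difference was there however the stages were cut.

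Ndrg2, a differentiation and stress gene of the N-myc downstream-regulated family, peaked in the middle bin of both libraries. Young cells had 66.1, 98.98 and 32.8 CPM from low to high Myog, and aged cells 152, 309 and 112 CPM. Its log2 ratio was 1.61 over all cells and 1.15, 1.59 and 1.63 by bin. Akr1b3, the aldose reductase that turns glucose into sorbitol, stood at 469 CPM in young and 1055 CPM in aged cells, with ratios of 1.09, 1.18 and 1.12. Its 10th percentile in aged cells was 289 CPM against 126 CPM in young ones, and its 90th percentile 2053 against 922 CPM. Isyna1, the enzyme that makes inositol phosphate from glucose phosphate, went from 26.5, 89.7 and 136 CPM in the young bins to 118, 212 and 284 CPM in the aged ones. Scd1, the desaturase that makes monounsaturated fatty acids, averaged 39.1 and 111 CPM, with ratios of 1.10, 1.43 and 1.19. Ifitm3, an interferon-induced membrane protein, was lower at higher Myog in both libraries and stood at 253, 71.7 and 26.2 CPM in young and 711, 165 and 110.0 CPM in aged bins. For Ifitm3 the all-cell ratio (0.98) was below the weighted one (1.45), since the aged library held fewer cells of the bin where the gene is highest. The same held for Igfbp5, a secreted insulin-like growth factor binding protein, with 0.83 over all cells and 1.31 weighted. Its levels were 1362, 392 and 212 CPM in young and 3490.4, 723 and 666 CPM in aged bins.

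**Figure D3:**
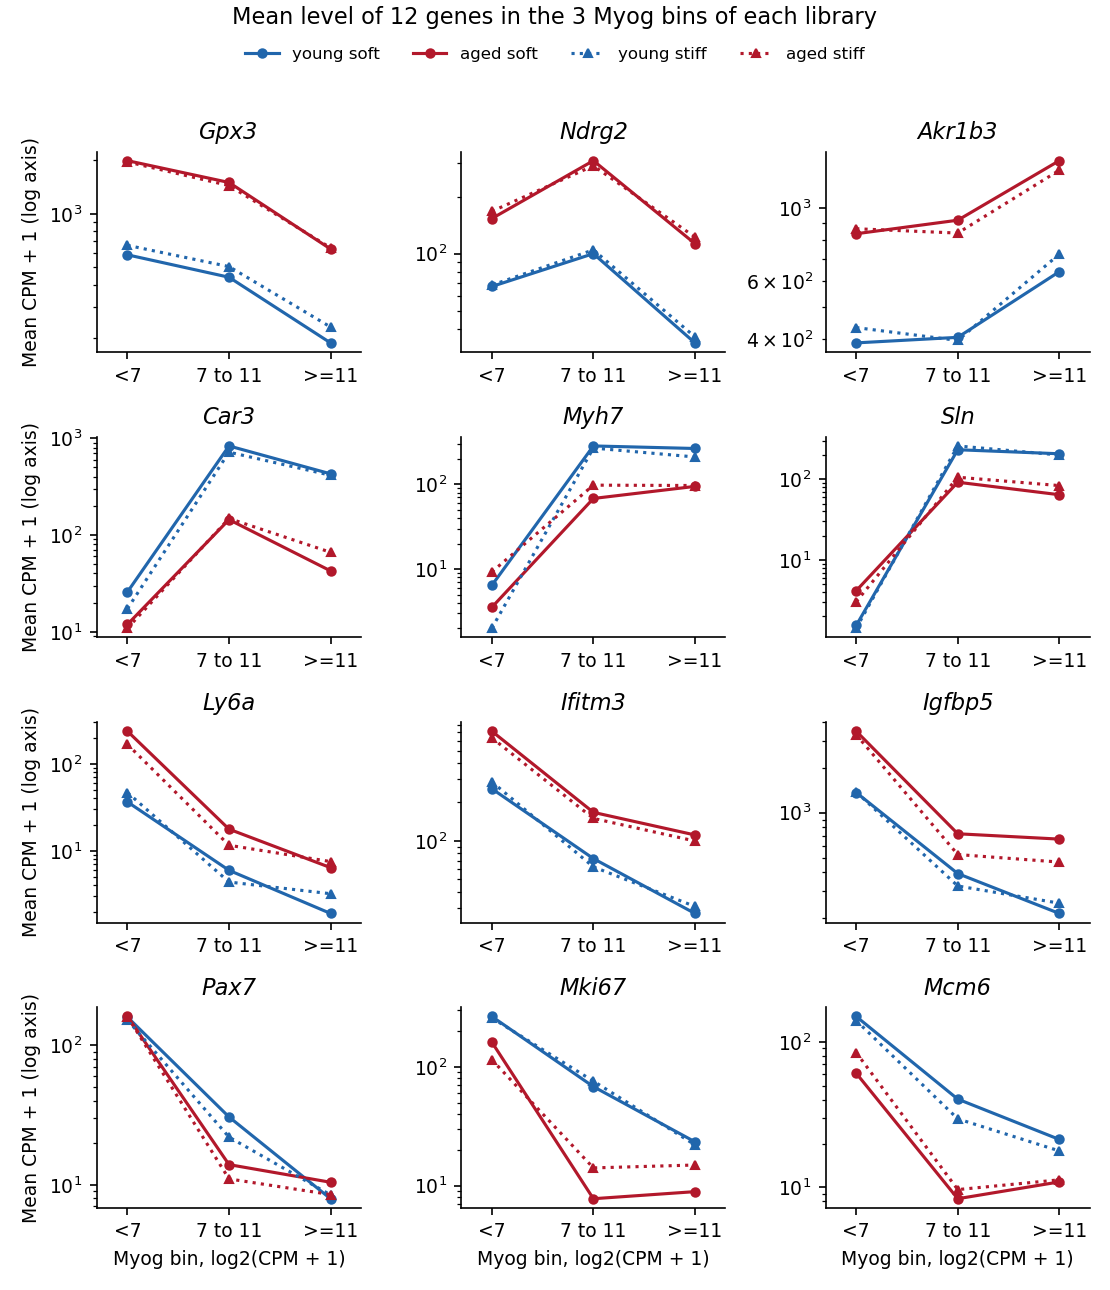
Mean CPM plus 1 (vertical axes, log scale, each panel with its own range) of 12 genes in the 3 Myog bins (horizontal axis) of the young (blue) and aged (red) libraries on soft (solid, circles) and stiff substrate (dotted, triangles). The red lines lie above the blue ones in every bin for Gpx3, Ndrg2, Akr1b3, Ly6a, Ifitm3 and Igfbp5 and below them in every bin for Car3, Mki67 and Mcm6, while for Pax7 all lines meet in the lowest bin.

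Car3, Myh7, Myl2 and Sln, known from slow or oxidative muscle, were lower in aged cells. Car3, a carbonic anhydrase of slow fibres and fat, averaged 397 CPM in young and 83.2 CPM in aged cells. By bin it was 24.8, 830.3 and 427 CPM in young and 10.9, 143 and 41.6 CPM in aged cells. The log2 ratio was -2.19 over all cells, -2.60 weighted and -3.21 in the highest Myog bin. Its median was 0 in both libraries, and the 90th percentile was 1093 CPM in young and 147 CPM in aged cells. Myh7, the slow myosin heavy chain, averaged 170.1 and 62.6 CPM, with 283 and 67.2 CPM in the middle bin and 264 and 93.6 CPM in the highest. Myl2, the slow regulatory light chain, stood at 145 CPM in young and 26.2 CPM in aged cells of the middle bin. Sln, sarcolipin, an inhibitor of the calcium pump, was 231 and 90.8 CPM there and 206 and 63.3 CPM in the highest bin. For these 4 genes the difference was larger after weighting (-2.60, -1.67, -1.84 and -1.38) than over all cells (-2.19, -1.37, -1.49 and -1.01). With cells weighted over 9 strata of Myog bin and contractile tertile, an alternative chosen after seeing the data, they were -2.81, -1.78, -1.99 and -1.50.

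Over all cells the slow list as a whole did not share that direction. Of its 17 measured members 13 were higher in aged cells, against 35.3% of all genes, with a median of 0.41. Weighted, 9 of 17 were higher (37.5% of all genes) with a median of 0.08. Its median was -0.10 over the 9 strata. In the highest Myog bin it was -0.07, as it was for all genes there. Ankrd1, one of the higher members, was 934 and 1774 CPM. Car3, Myl2 and Myh7 were the list's 3 members at least 2 times lower (2.77% of all genes). Cox6a2 and Cox8b, muscle forms of cytochrome oxidase subunits that many striated cells carry, are in the oxidative phosphorylation list and not in the slow one. They stood at 437 and 798 CPM and at 263 and 403 CPM. Other late genes that were lower in the highest bin were Frem2, an extracellular matrix protein (28.04 and 2.57 CPM), Tmsb15a, an actin-binding thymosin (75.4 and 13.4 CPM), and Fgfbp1, a carrier of fibroblast growth factors (24.4 and 4.53 CPM). The Tmsb15a difference turned to 0.47 when the bins were cut at 8 and 12.

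Fast and general contractile genes were higher in aged cells over all cells, and differed less once the Myog bin shares were set equal. Over all cells 35 of 39 measured members were higher and 6 at least 2 times higher, against 35.3% and 0.732% of all genes. Their median was 0.53 against -0.12 for all genes. Weighted, 27 of 39 were higher (37.5% of all genes) with a median of 0.17. Over the 9 strata the median was 0.02, but the strata are cut on the summed CPM of this same list. That cut limits how far the list can differ, so no conclusion is drawn from the 0.02. Acta1, skeletal muscle actin, averaged 7399 CPM in young and 11799.6 CPM in aged cells. Its ratio was 0.67 over all cells, 0.34 and 0.27 in the middle and highest Myog bins, and 0.15 over the strata. With Myog under 7 the list median was 1.37 and Acta1 went from 190.5 to 861 CPM. In the lowest contractile tertile Acta1 was 49.4 and 69.6 CPM, a ratio of 0.45. Acta1 is itself a term of the contractile sum, which limits how far it can differ within a tertile or stratum.

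A few contractile and fusion genes stayed higher within the bins. Atp2a1, the calcium pump of fast fibres, averaged 448 CPM in young and 1114 CPM in aged cells and had ratios of 1.01 and 0.60 in the middle and highest bins. Tnni2, the fast troponin inhibitor subunit, had 588 and 1177 CPM in the middle bin. Ckm, muscle creatine kinase, stood at 46.9 and 139.6 CPM over all cells and at 101 and 180.2 CPM in the highest bin. Myh4, the fastest myosin heavy chain, was low in both libraries, at 7.33 and 28.00 CPM. Mymx, the myomerger micropeptide that completes fusion, was 129 CPM in young and 251 CPM in aged cells of the highest bin. Mymk, myomaker, its partner at the membrane, was 1919 and 2293 CPM there. The commitment and fusion list had 15 of 21 members higher over all cells (median 0.16 against -0.12 for all genes) and 12 weighted (median 0.02 against -0.08), with 35.3% and 37.5% of all genes higher. Myog itself was 1533 and 1910.3 CPM, and Myod1 897 and 923 CPM.

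Among the other late genes, Fgf21, a secreted metabolic hormone of stressed muscle and liver, averaged 47.4 CPM in young and 142 CPM in aged cells. In the highest bin it was 63.7 and 172 CPM. R3hdml, a little-described predicted peptidase inhibitor, had the largest ratio over all cells without unnamed gene models (2.04), from 3.29 CPM in young to 29.2 CPM in aged cells. Both genes were close to 0 with Myog under 7 (1.02 and 1.31 CPM for Fgf21, 0.238 and 1.67 CPM for R3hdml). Ndrg4 (29.8 and 104 CPM) and the autophagy protein gene Map1lc3a (385 and 954 CPM) were highest in the middle bin of both libraries. Cmbl, a hydrolase, was 1.37 CPM in young and 23.7 CPM in aged cells of that bin.

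Cell cycle genes were lower in aged cells over all cells and within the bins. Of 32 measured genes of DNA replication and S phase, 32 were lower and 25 at least 2 times lower, against 64.7% and 2.77% of all genes. The median was -1.26 over all cells, -0.88 weighted, and -0.94, -1.35 and -0.42 by bin. Of 36 genes of G2 and mitosis, 35 were lower and 22 at least 2 times lower, with a median of -1.13 over all cells and -0.55 weighted. By bin that median was -0.40, -1.65 and -0.87. In the middle bin 26 of 27 measured members were at least 2 times lower (2.8% of all genes), and with Myog under 7 it was 0 of 40 (1.23%). Among Myog-low cells, S phase genes thus differed more than mitotic ones, and both medians were lower in the middle bin. The low and middle bins measured 36 and 20 S phase genes and 40 and 27 mitotic ones, so these medians are not of the same genes. A gene could pass the 20 CPM filter through young cells alone, as Ccna2 did in the middle bin (28.9 and 3.52 CPM). In the middle bin 49.1% of young and 66.9% of aged cells were in the highest contractile tertile, and with Myog under 7 the median contractile sum was 3638 CPM in young and 4583 CPM in aged cells. Over the 9 strata of Myog bin and contractile tertile the median was -0.76 for S phase and -0.41 for G2 and mitosis. The part of contractile stage in the ratios by bin was not tested.

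Mcm6, a subunit of the replicative helicase, was 148, 39.4 and 20.3 CPM in young and 59.8, 7.35 and 9.89 CPM in aged bins. Ccne2, the cyclin that starts S phase, averaged 61.6 and 12.9 CPM, Mcm3 74.7 and 17.1 CPM, and the replication clamp factor Pclaf 189 and 45.7 CPM. Hells and Atad2, chromatin remodellers of dividing cells, were 52.97 and 10.8 CPM and 90.4 and 20.99 CPM. Mki67, the antigen of proliferating nuclei, was 266, 67.3 and 22.4 CPM in young and 161, 6.75 and 7.89 CPM in aged bins. In thinned cells a Mki67 molecule was found in 38.6% of young and 24.7% of aged cells with Myog under 7, and in 11.1% and 2.23% in the middle bin (51.9% and 36.2%, and 15.1% and 3.18%, before thinning). The highest bin, whose cells should have left the cycle, gave 4.15% and 1.39%, at median depths of 40173.5 and 34961 UMIs. Top2a, the topoisomerase that untangles chromosomes, averaged 326 and 96.1 CPM, with a ratio of -0.74 with Myog under 7 and -2.81 in the middle bin. Among histone genes, Hist1h1b was 197 and 37.7 CPM and Hist1h2ap 188 and 19.6 CPM. Hist1h2ap shares near-identical coding sequence with its histone paralogs, so the split of reads among them is uncertain. Cdkn1a, the inhibitor p21 that holds differentiating cells out of the cycle, was 159.8, 1614 and 2252 CPM in young and 296, 1456 and 2694 CPM in aged bins. Cdkn2a, a marker of senescence, was 57.9 and 71.6 CPM with Myog under 7 and 28.9 and 24.9 CPM over all cells.

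The 250 bases before the start sites of the S phase, mitotic and contractile genes were searched for a motif known for each group. Only measured genes of each list were searched, in promoters taken from RefSeq (build GRCm38.p6), which had no entry for some of them. That gave 33 promoters for 26 S phase genes, 33 for 31 mitotic genes and 33 for 30 contractile genes. The full lists held 37, 41 and 45 genes. An E2F motif (TTTCCCGC, TTTGGCGC or TTTCGCGC on either strand) was in 21.2% of S phase promoters and in 1.53% of all 32851 promoters. The CHR motif of mitotic genes (TTTGAA on either strand) was in 39.4% of mitotic and 16.0% of all promoters. The E-box CAGCTG, which binds Myod1 and Myog, was in 45.5% of contractile and 13% of all promoters. E2F was in 3.03% of mitotic and 0% of contractile promoters, CHR in 9.09% of S phase and 6.06% of contractile ones, and the E-box in 3.03% of S phase and 6.06% of mitotic ones. A match is a description of the letters and not a site of binding or a cause. One promoter of each group is shown, 5′ to 3′ on the gene's strand and ending 1 base before the start site, with the motif of the group in capitals. For Mcm6 (chr1:128359706-128359955, minus strand) the capitals mark 3 E2F matches, 2 of which overlap; for Top2a (chr11:99024190-99024439, minus strand) 2 CHR matches, 1 on each strand; for Atp2a1 (chr7:126463074-126463323, minus strand) 1 E-box.
Mcm6: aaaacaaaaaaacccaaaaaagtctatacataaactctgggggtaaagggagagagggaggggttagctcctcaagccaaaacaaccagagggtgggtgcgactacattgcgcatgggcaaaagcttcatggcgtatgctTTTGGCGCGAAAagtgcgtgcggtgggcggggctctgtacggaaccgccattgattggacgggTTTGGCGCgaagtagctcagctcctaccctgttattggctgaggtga
Top2a: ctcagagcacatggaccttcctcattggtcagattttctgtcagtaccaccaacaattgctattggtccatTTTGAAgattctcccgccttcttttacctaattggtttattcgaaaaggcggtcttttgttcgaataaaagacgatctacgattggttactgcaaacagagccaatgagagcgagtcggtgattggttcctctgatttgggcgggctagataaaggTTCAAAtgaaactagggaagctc
Atp2a1: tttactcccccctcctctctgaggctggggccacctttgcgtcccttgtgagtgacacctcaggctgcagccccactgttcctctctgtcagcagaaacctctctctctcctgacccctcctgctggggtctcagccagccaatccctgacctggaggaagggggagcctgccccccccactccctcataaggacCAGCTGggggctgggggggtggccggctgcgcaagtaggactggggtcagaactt

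Pax7 and the Notch targets Hes1 and Heyl were lower in aged cells over all cells and stood at near levels in Myog-low cells, which was not tested. Pax7 averaged 72.7 CPM in young and 41.8 CPM in aged cells, but 159 and 160.3 CPM in cells with Myog under 7. Its ratio was -0.73 over all cells and -0.07 weighted. A Pax7 molecule was found in 50.6% of young and 50.9% of aged Myog-low cells after thinning (94.5% and 88.9% before), against 3.41% and 3.46% in the highest Myog bin, which should lack it (18.5% and 20.1% before). Hes1 and Heyl, targets of Notch signalling, were 172 and 107 CPM and 71.1 and 36.6 CPM over all cells. With Myog under 7 Hes1 was 365 and 351 CPM and Heyl 153 and 146 CPM. The receptor Notch3 still differed there, at 148 and 112 CPM, and Myf5 was 212 and 186 CPM. Igfbp7 (1582 and 1539.8 CPM) and the lipid carrier Fabp7 (163 and 156 CPM) also stood at nearly equal levels in Myog-low cells. The satellite cell list had 14 of 19 members lower over all cells, a share near the 64.7% of all genes, with a median of -0.58 against -0.12, and a median of -0.07 weighted and -0.06 in the lowest bin, where the median of all genes was -0.05.

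Within the Myog-low cells other genes separated the libraries. Ly6a, the surface protein Sca-1 that interferon induces, averaged 35.5 CPM in young and 236 CPM in aged cells of that bin, a ratio of 2.58. A Ly6a molecule was found in 13.5% of young and 40.6% of aged cells after thinning (35.4% and 61.99% before), against 0.732% and 1.85% in the highest bin. Ly6a also marks fibro-adipogenic cells. Of the 9 markers of these cells in the tables, 1 reached 20 CPM in this bin, the actin-severing gelsolin gene Gsn, at 234 CPM in young and 405 CPM in aged cells (ratio 0.78). The other 8 summed to 19.8 CPM in young and 9.07 CPM in aged cells, with Lum at 0 in both. Among these, Dpt was 14.8 and 0.370 CPM, Dcn 2.17 and 5.50 CPM, Pdgfra 0.773 and 1.46 CPM and Cd34 0.687 and 0.858 CPM. The part of such cells in the Ly6a ratio was not tested. The chemokines Ccl7 (17.1 and 115 CPM) and Ccl8 (0.345 and 26.97 CPM) were higher in aged Myog-low cells, and Fbxo2, a ubiquitin ligase subunit for glycoproteins, was 8.75 and 54.2 CPM. The cytokine signalling inhibitor Socs3 was 20.1 and 62.6 CPM. Genes lower in aged Myog-low cells included Dmp1, an acidic matrix phosphoprotein known from bone (120.3 and 21.9 CPM), Areg, a ligand of the epidermal growth factor receptor (42.00 and 3.87 CPM), and Id4, an inhibitor of helix-loop-helix factors (53.1 and 10.5 CPM). Col15a1 (42.6 and 2.99 CPM) and the peptide hormone gene Cck (41.5 and 0.483 CPM) were nearly absent from aged cells. Few cells carried Cck in either library, with a 90th percentile of 0 CPM over all cells in both. Ctgf, a matricellular target of YAP and TGF-beta, was 42.9 and 9.95 CPM, and its relative Cyr61 164 and 128 CPM.

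Most matrix genes were lower in aged cells, by less when weighted. Of 22 measured genes of fibrillar and basement membrane matrix, 19 were lower and 9 at least 2 times lower, against 64.7% and 2.77% of all genes. Their median was -0.89 over all cells against -0.12 for all genes, and -0.35 weighted against -0.08. Fn1, fibronectin, was 528 CPM in young and 260.0 CPM in aged Myog-low cells. Tnc, tenascin C, was 91.8 and 31.5 CPM there, and the collagen chains Col6a3 and Col5a3 180.3 and 67.03 CPM and 60.2 and 18.2 CPM. Thbs1, thrombospondin, went the other way in the highest Myog bin, with 7.59 CPM in young and 42.1 CPM in aged cells. Serpinh1, the collagen chaperone, was 861, 256 and 285 CPM in young and 444, 85.3 and 151 CPM in aged bins. P4ha1, which hydroxylates collagen proline, had ratios of -0.90, -0.87 and -0.98 by bin. The protease inhibitor Timp1 was 739 and 346 CPM in Myog-low cells, and the secreted phosphoprotein Spp1, osteopontin, 13319.6 and 7932 CPM. In the TGF-beta and Id list 0 of 17 members were higher over all cells (median -0.54 against -0.12), and 2 of 18 weighted (median -0.26 against -0.08), where 35.3% and 37.5% of all genes were. Its feedback inhibitor Smad7 was 101 and 39.4 CPM and the ligand gene Tgfb1 88.4 and 43.5 CPM.

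Most genes of the unfolded protein response were lower in aged cells, and most measured genes of the interferon and MHC class I list were higher. Of 27 measured genes of the unfolded protein response, 23 were lower over all cells (64.7% of all genes) and 25 weighted (62.5%), with medians of -0.56 and -0.42, and of -0.47, -0.45 and -0.22 by bin. Hsp90b1, the luminal chaperone, was 499.7 and 239 CPM, and the disulfide isomerases Pdia4 and Pdia6 were 103 and 48.7 CPM and 263 and 143 CPM. Hspd1, the mitochondrial chaperone, had ratios of -0.87, -1.14 and -0.79. Of 13 measured genes of the MHC class I and interferon list, 11 were higher over all cells (median 0.31 against -0.12 for all genes), and 13 of 14 weighted (median 0.60 against -0.08), with 35.3% and 37.5% of all genes higher. In the middle bin 6 of 11 were higher (37.8% of all genes). Only 13 of its 39 members in the tables passed 20 CPM, and Ly6a and Ifitm3 are members of it. H2-K1, a heavy chain of MHC class I, was 31.2 and 62.3 CPM with ratios of 0.67, 1.11 and 0.89. Bst2, tetherin, was 11.7 and 25.7 CPM, and H2-D1 58.9 and 97.6 CPM in Myog-low cells. B2m, the light chain shared by these molecules, was not higher, at 88.9 and 64.1 CPM. In the middle bin the list's median of 0.34 turned to -0.10 when members down to 1 CPM were counted.

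Nuclear genes of oxidative phosphorylation were higher by a small amount: 75 of 78 were higher over all cells (35.3% of all genes) and 69 weighted (37.5%), with medians of 0.29 and 0.17 against -0.12 and -0.08, and none past 2-fold over all cells. Ndufc1, a subunit of complex I, was 551 and 785 CPM. The 13 mitochondrially encoded genes had a median of -0.02 over all cells and -0.32 in the middle bin, where 0 of 13 were higher (37.8% of all genes there). That bin held 71 of the 83 aged cells with under 1% mitochondrial counts, and without such cells its median was -0.20. Proteasome genes had 20 of 31 higher over all cells (median 0.08), 29 weighted (median 0.16) and 13 in the middle bin (median -0.02), against 35.3%, 37.5% and 37.8% of all genes. Cytosolic ribosomal proteins had 0.01 and 0.07. Glycolysis and hypoxia genes had -0.06 and -0.17, with the muscle form Pfkm at 124 and 219 CPM and the liver form Pfkl at 45.5 and 25.6 CPM. Antioxidant genes, among which Gpx3 is listed, had a median of -0.10 and 0.05, and the metallothioneins Mt1 and Mt2 were lower (468 and 191 CPM, 166 and 83.4 CPM). Cholesterol and fatty acid synthesis, which lists Scd1, had medians of -0.09 and 0.14, with Sqle, an enzyme of cholesterol synthesis, at 43.7 and 31.97 CPM.

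RNA decay, named in the title of the study, differed little. Of 46 measured genes of deadenylation, decapping, the exosome and nonsense-mediated decay, 38 were lower over all cells, against 64.7% of all genes, with a median of -0.18 against -0.12. Weighted, the median was -0.09 against -0.08 over all genes, and none was past 2-fold in either reading. Cnot6, a deadenylase subunit, was 57.2 and 31.1 CPM and had the lowest ratio of the list over all cells (-0.79, -0.44 weighted). The exosome subunits Exosc8 and Exosc2 were 46.9 and 25.2 CPM and 87.1 and 53.97 CPM. Of 19 proteins that bind AU-rich elements, 17 were lower over all cells, against 64.7% of all genes. Their median was -0.28 against -0.12, and -0.17 against -0.08 weighted. Zfp36l2, one of them, was 80.8 and 41.8 CPM over all cells and 185 and 171 CPM with Myog under 7.

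Of the lists tied to the stiffness response, YAP and TAZ targets and integrins had medians nearest to that of all genes (-0.12 over all cells, -0.08 weighted). YAP and TAZ targets had a median of -0.15 over all cells and -0.05 weighted, with 7 of 18 higher in each (35.3% and 37.5% of all genes). Ankrd1, a target that also rises with muscle differentiation, was 934 and 1774 CPM, while Cyr61 was 98.7 and 57.6 CPM. Actin and SRF genes lay lower, with 24 of 28 lower over all cells (64.7% of all genes) and 25 of 27 in the middle bin (62.2%), where 7 were at least 2 times lower (2.8%) and the median was -0.47 against -0.10. Over all cells and weighted their medians were -0.31 and -0.15, with cytoplasmic actin Actb at 2678 and 1368 CPM over all cells and 5099.8 and 4401 CPM with Myog under 7. Integrins and adhesion genes had -0.20 and -0.06, with Itga6, the laminin receptor chain, at 55.1 and 28.6 CPM. Acetylcholine receptor and endplate genes had 0.33 and 0.14, with the embryonic subunit Chrng at 203 and 328 CPM.

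**Figure D4:**
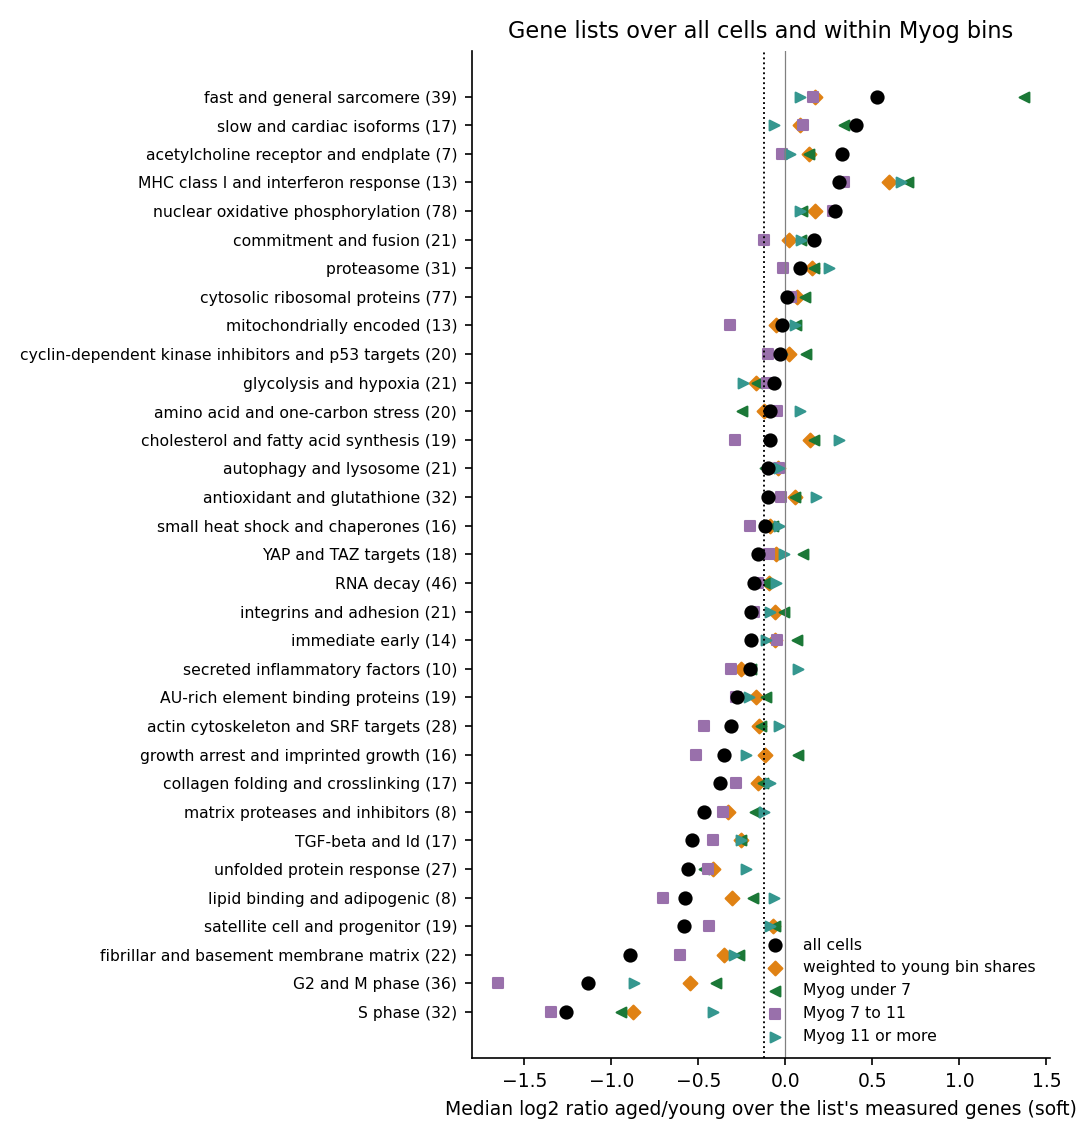
Median log2 ratio of aged over young (horizontal axis) of each gene list with 5 or more measured members (number in brackets), over all soft cells (black circles), weighted to the young Myog bin shares (orange diamonds) and within each bin; the dotted line is the median of all genes, -0.12. S phase (-1.26) and G2 and M phase (-1.13) lie farthest to the left over all cells, and the contractile list lies at 0.53 over all cells, at 0.17 weighted and at 1.37 with Myog under 7.

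The stiff pair is a second pair of libraries, but the sources used here do not say whether the soft and stiff cultures of an age came from the same animals, so it is no separate replicate of the animals. There 53 of 6043 genes were at least 2 times higher in aged cells (0.877%) and 228 lower (3.77%). Of the 45 genes higher and the 170 lower on soft substrate, 34 and 143 were past 2-fold on stiff (75.6% and 84.1% of the soft lists, 64.2% and 62.7% of the stiff ones), and 45 and 168 had the same sign. Of all genes measured on stiff, 35.6% were higher and 64.4% lower. Across 6211 genes the 2 sets of ratios had a Pearson correlation of 0.94 and a Spearman correlation of 0.95, as a description, since genes are not independent and the stages of the cells enter both. Gpx3 stood at 484 CPM in young and 1292 CPM in aged stiff cells, with ratios of 1.55, 1.51 and 1.46 by bin. Car3 was 362 and 103 CPM, and Myh7 149.8 and 83.2 CPM. Pax7 in Myog-low cells had a ratio of 0.08, and Mki67 one of -1.14. Ly6a had 1.75 with Myog under 7, against 2.58 on soft. Cck had an all-cell ratio of -0.67 against -1.80, but was below the 20 CPM filter over all cells. Its levels in young and aged cells were 9.96 and 4.41 CPM on stiff and 17.5 and 1.48 CPM on soft. Hes1 had an all-cell ratio of -1.41 against -0.66. Whether these ratios differed between substrates was not tested.

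**Figure D5:**
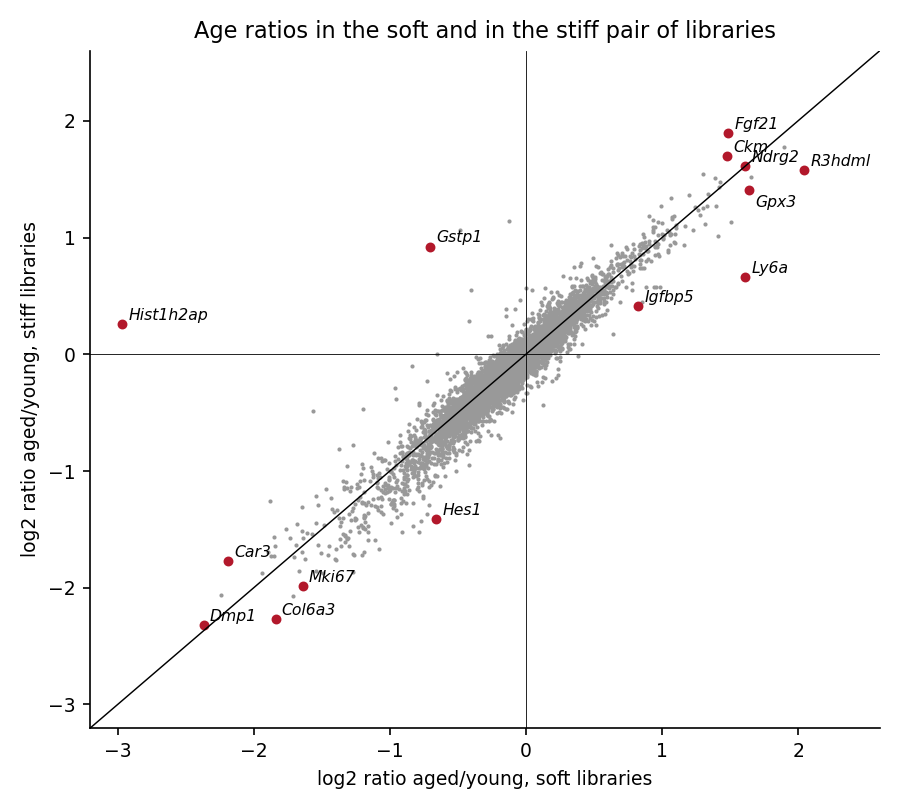
Each point is a gene: its log2 ratio of aged over young in the soft libraries (horizontal axis) against that in the stiff libraries (vertical axis), with the line of equality. Most genes lie along the line; Hist1h2ap (-2.97 on soft, 0.26 on stiff) and Gstp1 (-0.70 and 0.92) lie far from it.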

How the data were processed

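There were 4 libraries of single cells, 1 for each age and substrate, and the soft pair carries the comparison. The deposited tables held log2 values, log2(CPM + 1) per cell for 13772 genes, a unit found from the values, which sum to the CPM total in each cell once un-logged. The submitters' processing notes name Cell Ranger 6.1.2 and Partek. Build, annotation and cell filters are not given in the sources used here. Values were un-logged before averaging. UMIs were recovered from the steps between values, with 99.95% to 99.96% of values whole within 0.05. For 11 genes, none of them named here, values fell between whole counts. Python 3.11.15, numpy 2.4.6, pandas 2.3.3 and scipy 1.17.1 were used, and the computation was checked on simulated counts.

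Each difference is the log2 ratio of mean CPM with 5 added, for genes of 20 CPM or more in one of the libraries, and a gene counts as called past 2-fold. With 1 library per group no test was made. Weighted values give each Myog bin of the aged library its share in the young one. Doublets were neither called nor removed. The members, the 34 gene lists and the 10 marker lists were chosen with earlier results of these data known. Genes named are the 12 largest and 12 smallest ratios over all cells without unnamed gene models, up to 10 each way past 2-fold in all 3 bins, the 6 largest and 6 smallest of each bin, up to 4 of each list with the largest absolute ratio, and a fixed set of stage and marker genes. Rules for genes past 2-fold but under 0.32 in absolute log2 ratio when weighted, and for list members that reverse when weighted, named none. Ctrb1, Fhl1, Mef2c, Pdlim3, Ankrd23, Gstp1, Gm10076 and Grcc10 are not among these and were picked with their values in view. Some genes, among them genes named by the rule, are not reported here in text or plots but stay in the counts. Over the named genes the exact interval of the UMI ratio extended by 5.10% (median) and no more than 19.7%. The alternatives were a pseudocount of 1 or 20, a filter of 1 or 50 CPM, summed UMIs, median-of-ratios scaling, bins cut at 6 and 10 or 8 and 12, Myog thinned to 10000 UMIs, bins from the contractile sum, and leaving out cells under 1% mitochondrial counts, under 10000 UMIs or the 5% with most UMIs. The 9 strata were added after seeing the data.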

Additional observations from a re-analysis of the deposited data

Results flagged for a closer look

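Hist1h2ap, a histone H2A gene of dividing cells, was lower in aged cells on soft substrate (-2.97) and slightly higher on stiff substrate (0.26). Its levels were 188 CPM in young and 19.6 CPM in aged soft cells, and 53.1 and 64.5 CPM in young and aged stiff cells, so the young soft library stood above the other three. The histone gene Hist1h1b was lower in aged cells in both pairs (-2.24 and -2.06). The difference between the pairs was not tested.

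For 7 genes the ratio in cells with Myog under 7 and that in cells with Myog of 11 or more pointed opposite ways, past 2-fold in one bin and past a log2 ratio of 0.32 in the other. Apoe, a lipid carrier, was lower in aged Myog-low cells (-1.60) and higher in the highest bin (0.72), where its levels were 19.2 and 34.8 CPM. In that highest bin an Apoe molecule was found in 3.66% of young and 3.46% of aged cells after thinning (16.1% and 9.70% before). The higher aged mean there thus did not come with more cells carrying Apoe. On stiff substrate Apoe was lower in both bins (-0.58 and -1.32). Timp1 (-1.08 and 0.47) and the protease gene Ctrb1 (-1.02 and 0.66) had the same pattern on soft substrate, and on stiff had -1.24 and -0.07, and -0.79 and 0.22. Cox8b (1.21 and -0.54), Fhl1 (1.27 and -0.42), the transcription factor gene Mef2c (1.59 and -0.51) and Pdlim3 (1.15 and -0.40), all genes of differentiating muscle, had the reverse pattern. On stiff substrate Mef2c had 2.07 and -0.55 and Fhl1 2.16 and -0.41. The aged Myog-low bin held 35 of 271 cells in the middle or highest contractile tertile against 17 of 526 in the young one, and their part in these ratios was not tested. None of these differences between bins was tested.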

How the results depend on the processing

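Of the 154 recomputed counts and shares, 110 stayed within 1.5 times the value reported or inside its interval. Among the ratios of named genes 1 changed sign (Tmsb15a with Myog of 11 or more, 0.47 with edges at 8 and 12), as did 6 medians of lists: cholesterol and fatty acid synthesis in the middle bin (0.24 with a filter of 50 CPM, 0.10 with median-of-ratios scaling, 0.058 with edges at 8 and 12), MHC class I and interferon response there (-0.10 with a filter of 1 CPM), lipid binding there (0.00598 with that filter) and matrix proteases weighted (0.21 with a filter of 50 CPM). The filters change which genes are counted; the cause was not tested for the others.

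Counts of genes past 2-fold moved as follows. A pseudocount of 1 gave 69 higher over all cells, 74 lower weighted, and 45 and 47 higher in the middle and highest bins. A pseudocount of 20, which shrinks low genes, gave 23 higher and 61 lower over all cells, 12 and 17 weighted, and 41 and 29, 16 and 63, and 13 and 11 from the lowest to the highest bin. A filter of 50 CPM, which tests fewer genes, gave 92 lower over all cells, 18 higher and 31 lower weighted, and 46 and 39, 19 and 93, and 16 and 19 by bin; a filter of 1 CPM gave 249 lower in the middle bin. Median-of-ratios scaling gave 89 higher over all cells and 56 and 47 in the middle and highest bins. With Myog edges at 6 and 10 the middle bin had 80 higher and 481 lower, and the shares of cells were 35.1%, 17.9% and 47.1% in young and 18.1%, 28.5% and 53.4% in aged cells. With edges at 8 and 12 there were 119 higher in the lowest bin, 86 lower in the middle and 51 lower in the highest, with 45.96% and 12.7% of young cells in the middle and highest bins and 22.96%, 62.0% and 15% of aged cells in the 3. Myog thinned to 10000 UMIs gave 120 higher in the lowest bin. No paired analysis was possible because each group has 1 library, and no replicate could be left out. Depth limits low genes, and cells cannot stand in for replicates.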

Other observations

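Among growth factor, receptor and secreted genes outside the groups above, 4 that were lower in aged cells over all cells are Csf1, Pgf, Igf1 and Igfbp4. Csf1, the macrophage growth factor, was 82.7 CPM in young and 35.7 CPM in aged cells, and 193 and 144 CPM with Myog under 7. Pgf, placental growth factor, was 96.1 and 31.03 CPM over all cells and 225 and 129 CPM with Myog under 7. Igf1, a growth factor for muscle, was 33.4 and 16.1 CPM, with ratios of -0.75, -1.01 and -0.47 by bin. Igfbp4, a binding protein of the same system, was 83.6 and 37.7 CPM. Gal, a neuropeptide gene, was 2.90 CPM in young and 21.8 CPM in aged cells of the highest bin. Il4ra, the interleukin 4 receptor chain, was 25.2 and 56.7 CPM with Myog under 7. Ogn, osteoglycin, was 10.3 and 67.4 CPM there and 155 and 102 CPM in the middle bin.

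Besides Hist1h2ap, 3 genes had ratios of opposite sign on the 2 substrates, each past 0.32 on the log2 scale: Gstp1, a glutathione transferase (-0.70 on soft, 0.92 on stiff), Grcc10 (-0.40 and 0.55) and the gene model Gm10076 (-0.49 and 1.07). Gstp1 was 91.4 and 54.3 CPM in young and aged soft cells and 46.6 and 92.7 CPM in young and aged stiff cells. The difference was not tested.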
